A study of Mus musculus with 11 samples.

Results

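Heat shock chaperone messages were followed in pancreatic islets of virgin and multiparous mice. The 10 genes were Hspa1a, Hspa1b, Hspa8, Hsph1, Dnajb1, Hsp90aa1, Hsp90ab1, Hspb1, Hspd1 and Hspe1, chosen by symbol from the 55536 genes of the count tables. All 10 passed the filter on low counts in every comparison. The set was named cytosolic, but Hspd1 and Hspe1 encode the chaperonin pair of the mitochondrial matrix, so the genes are called heat shock chaperones here. Bulk RNA-seq had been made from islets of wild type C57BL/6J females in 4 groups. Littermates were assigned at 9 weeks of age to stay virgin or to be mated, and virgin mice were age-matched controls. Multiparous mice had 3 pregnancies and were studied 3 weeks after the last delivery. Mice of either parity received no treatment (2 libraries each) or S-961 for 3 days (3 virgin and 4 multipara libraries). S-961 is a peptide antagonist of the insulin receptor, which raises the demand on beta cells. The labels do not say whether a library came from 1 animal or from a pool. For the S-961 groups the paper gives as many mice as there are libraries. Levels are CPM (the counts of a gene per 1000000 counts of its library), scaled by TMM over all 11 libraries, and each library is named by its label.

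Heat shock proteins bind unfolded or aggregation-prone proteins and pass them on for folding or degradation. HSP70 proteins work in cycles with J-domain partners, which deliver clients, and with nucleotide exchange factors, which release them, while HSP90 completes the folding of kinases and receptors. Small heat shock proteins hold unfolded clients without ATP, and HSP60 with its lid HSP10 encloses a client within mitochondria. Heat shock factor 1 induces many of these genes through heat shock elements, inverted repeats of GAA. Beta cells make insulin in large amounts, and their endoplasmic reticulum (ER) has chaperones of its own.

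The upstream sequences are shown because Hspa1a and Hspa1b, which share reads, moved together across the libraries. Hspd1 and Hspe1 start next to each other but parted between untreated and S-961 libraries. Within the S-961 libraries the ratio of Hspe1 to Hspd1 stayed at 0.23 to 0.29. Of the 10 genes, 7 had an entry in the RefSeq promoter table (GRCm38.p6, from 250 bases before to 50 bases after a start). Hspa8, Hsp90aa1 and Hsp90ab1 had none. Capitals mark the heat shock element letters GAANNTTC or TTCNNGAA, which read the same on both strands. The first pair of lines gives the 250 bases before the start of Hspa1a (chr17:34972157-34972406, minus strand) and of Hspa1b (chr17:34959239-34959488, minus strand).
Hspa1a: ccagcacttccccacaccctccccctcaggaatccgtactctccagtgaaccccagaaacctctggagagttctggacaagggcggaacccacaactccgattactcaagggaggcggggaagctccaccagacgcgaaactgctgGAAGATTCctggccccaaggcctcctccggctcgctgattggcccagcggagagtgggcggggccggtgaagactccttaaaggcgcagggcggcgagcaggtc
Hspa1b: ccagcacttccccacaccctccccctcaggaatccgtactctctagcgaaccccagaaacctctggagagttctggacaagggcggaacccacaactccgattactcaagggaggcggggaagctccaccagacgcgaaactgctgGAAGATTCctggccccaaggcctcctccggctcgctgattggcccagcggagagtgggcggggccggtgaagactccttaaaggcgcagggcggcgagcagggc
These stretches differed at 3 of 250 bases (98.8% identity). Each held 1 element, whose first base lay at -104, and 1 CCAAT box, read as ATTGG, at -67. The next line gives the 250 bases before the start of Hspb1 (chr5:135887669-135887918, plus strand), with elements at -117 and -97.
Hspb1: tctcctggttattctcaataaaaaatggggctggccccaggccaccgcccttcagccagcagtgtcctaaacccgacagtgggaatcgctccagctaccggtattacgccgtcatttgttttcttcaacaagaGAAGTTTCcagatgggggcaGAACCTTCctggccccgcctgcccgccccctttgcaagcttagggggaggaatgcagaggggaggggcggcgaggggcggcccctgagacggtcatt
Hspe1 and Hspd1 lie head to head on chromosome 1, where their annotated genes overlap by 112 bases. A single stretch (chr1:55088053-55088082, plus strand) starting at -95 from the Hspe1 start held 3 overlapping elements in a row.
Hspe1 and Hspd1: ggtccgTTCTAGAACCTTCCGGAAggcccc
Hsph1 (chr5:149636351-149636380, minus strand) had an element at -33 from one of its starts.
Hsph1: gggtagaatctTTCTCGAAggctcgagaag
An element of this kind was found in 6 of the 7 genes, all but Dnajb1, where a gene counted if any of its starts had one. Hspd1 had 0 at its start at base 55088243 and 3 at its start at base 55087932. Of the 32851 promoter windows in the table, 15.1% held an element. That share is per window and not per gene, and some genes have more than 1 window. A longer form, GAANNTTC followed after 2 bases by GAA or TTCNNGAA followed after 2 bases by TTC, contains the shorter one. It was found for Hspe1, Hspd1 and Hsph1 and in 0.603% of windows. In Hsph1 it lay after the start, with its first base at 37 or 16 by the start used, outside the stretch shown. CCAAT or ATTGG stood in 37.4% of windows. A match is a description of letters, not of binding.

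Hspa1a (ENSMUSG00000091971, chr17:34969190-34972156) and Hspa1b (ENSMUSG00000090877, chr17:34956436-34959238) are single-exon genes 9951 bases apart. Of the 100-base windows of the Hspa1a transcript, 47.1% occur letter for letter in Hspa1b, so that reads were divided between them. Neither had a whole count in any library, and the same held for Hspa8, Hsp90aa1, Hspe1 and Hspd1. The part of divided reads in the values and ratios of those other genes was not tested. The ratio of Hspa1a to Hspa1b ran from 1.19 to 1.62 over the libraries. Their summed count was therefore tested as well. Gm20481 overlaps Hspa1a on the opposite strand. The libraries were strand-specific, and the part of this overlap in the counts was not tested.

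Several libraries stood apart. Total counts ran from 22028507 to 32234146. Insulin messages took 13.2% to 20.7% of counts with S-961 and 35.3% to 41.4% without. The summed level of 13 acinar cell markers was 1858 to 12344 CPM with S-961 and 120 to 188 CPM without, and 12 of the 13 were called higher in each parity group; of these markers only Ptf1a was at 0 in some library. The summed level of 6 proliferation markers was 276, 247 and 124 CPM in multipara S-961 1, 2 and 3. It was 11.4 CPM in multipara S-961 4, within the 9.67 to 27.6 CPM of the virgin S-961 libraries, so that multipara S-961 4 went with the virgin libraries rather than with its own label. Among these markers, Cdk1 was at 26.03, 33.7 and 11.02 CPM in multipara S-961 1, 2 and 3. It was at 0.71 to 1.39 CPM in the virgin S-961 libraries and at 0.77 CPM in multipara S-961 4. The paper reports lower Cdk1 in multiparous than in virgin islets after S-961, the opposite direction to that given by the labels here. A mix-up of the labels of the S-961 libraries was not tested. The direction of each multiparity difference with S-961, and of each difference between multiparity effects, rests on the labels. An exchange of the virgin and multipara labels with S-961 would turn the former and need not turn the latter. No result was computed with the libraries regrouped by the split of these markers, which is not an exchange of whole groups. Multipara untreated 1 had 255 CPM of lymphocyte markers against 29.8 CPM in multipara untreated 2, and 2363 against 485 CPM of red blood cell markers. Its proliferation markers summed to 85.1 CPM, against 6.49 to 15.2 CPM in the other untreated libraries. Multipara S-961 3 had the lowest summed level of the 10 chaperone genes (2033 CPM, against 3236 to 4761 CPM in the others). No label gives a batch, and a batch cannot be told apart from the treatment.

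Per kilobase of the longest coding transcript, the order of the levels was led by Hspa8, the constitutive HSP70. In virgin untreated islets it stood at 848 ± 1.86 CPM per kb (SD, n = 2). Hsp90ab1, the constitutive HSP90 beta, followed at 574 ± 9.21 CPM per kb, and Hsp90aa1, the inducible HSP90 alpha, at 168 ± 0.38 CPM per kb. Hspe1 (130 ± 0.35) and Hspd1 (86.2 ± 5.99 CPM per kb) were next. Hsph1 at 40.2 ± 3.35 and Hspa1a at 38.9 ± 1.80 CPM per kb overlapped in their ranges. Hspa1b (26.4 ± 0.95), Dnajb1 (20.2 ± 0.67) and Hspb1 (15.6 ± 0.70 CPM per kb) closed the order. In virgin S-961 islets Hspd1 stood above Hspe1 in the mean (72.8 and 61.4 CPM per kb, n = 3), but the ranges of 65.4 to 86.6 and 51.8 to 79.2 CPM per kb overlapped.

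**Figure D1:**
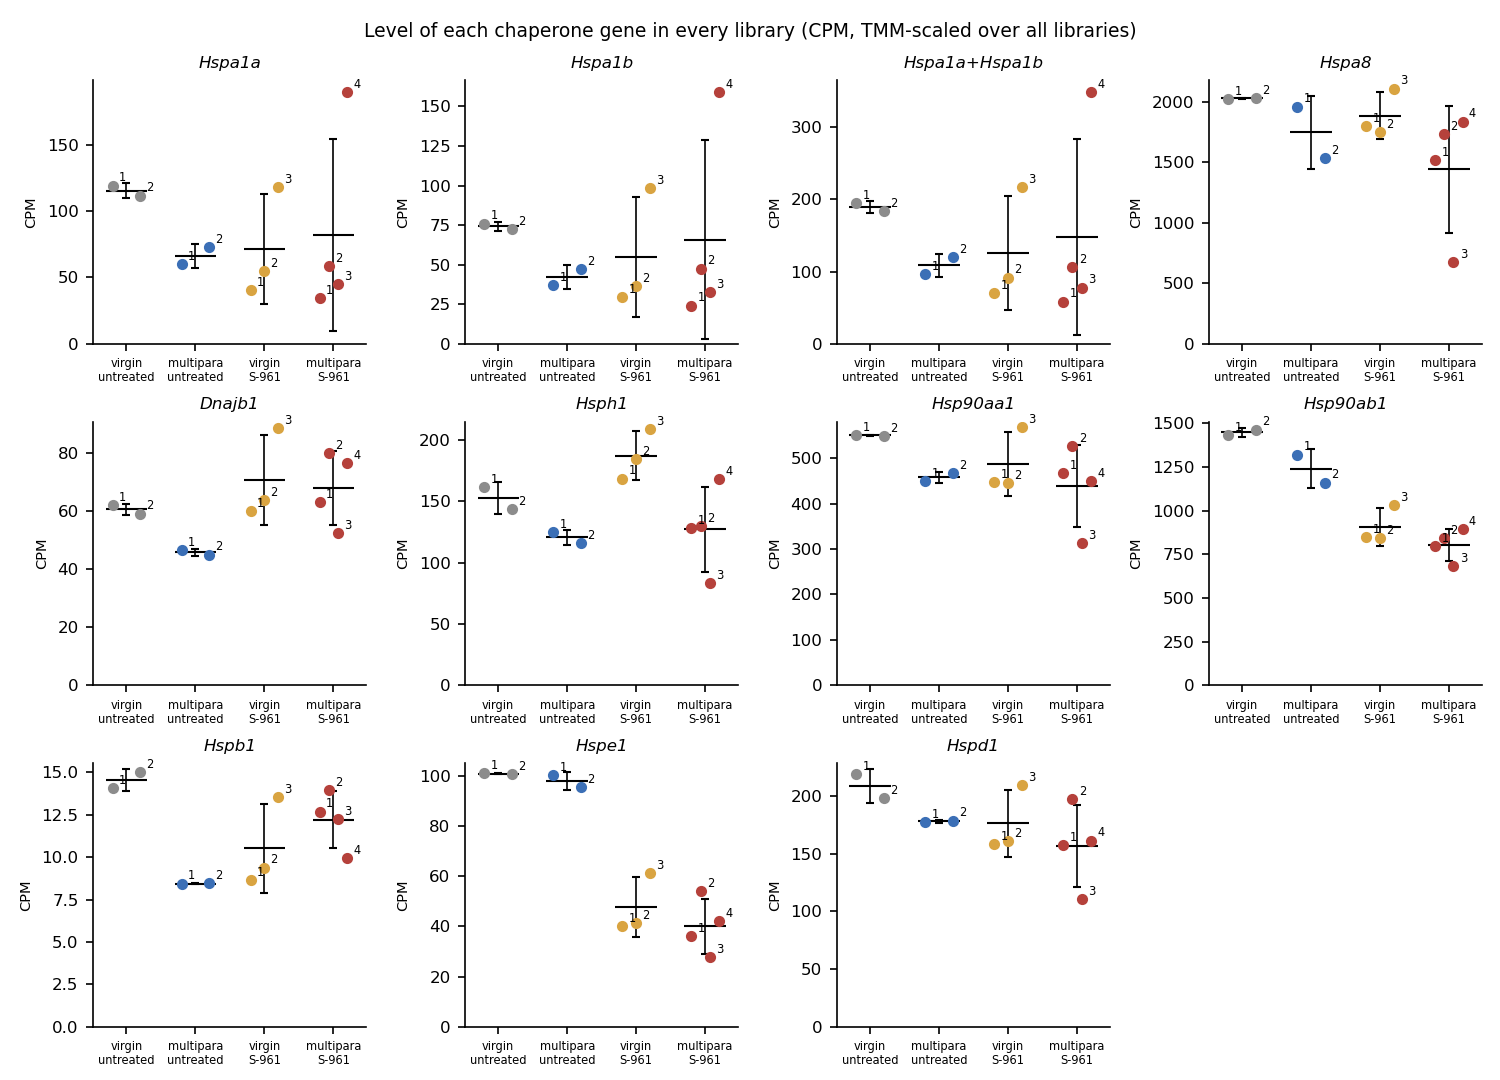
Level of each gene and of the sum of Hspa1a and Hspa1b in CPM (y axis, from 0) in the 4 groups (x axis); each numbered point is a library, the line is the group mean and the bar 1 SD. Hspe1 and Hsp90ab1 were lower in every S-961 library than in every untreated one, and the inducible HSP70 genes had their highest value in multipara S-961 4.

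The inducible HSP70 genes Hspa1a and Hspa1b spread more widely with S-961 than without. The sum of Hspa1a and Hspa1b was 195 and 184 CPM in virgin untreated islets and 96.9 and 120 CPM in multipara untreated islets. With S-961 it was 69.9, 91.6 and 217 CPM in virgin libraries 1 to 3, and 58.3, 106, 77.9 and 349 CPM in multipara libraries 1 to 4. Without treatment both multipara libraries lay below both virgin libraries. With S-961 the groups overlapped, and each held 1 library well above the others.

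Multiparity without treatment went with lower values of all 10 genes, none of which passed the adjusted threshold. Hspa1a was 119 and 112 CPM in virgin and 59.9 and 72.7 CPM in multipara untreated libraries. Its log2 fold change, multipara against virgin, was -0.80 ± 0.10 (SE; adjusted p = 0.72, edgeR quasi-likelihood test with Benjamini-Hochberg adjustment over 15812 genes). Hspa1b was 76.0 and 72.2 against 37.0 and 47.4 CPM, with a log2 fold change of -0.81 ± 0.12. Hspb1, the small heat shock protein HSP25 of the mouse, was 14.1 and 15.0 against 8.44 and 8.45 CPM, a log2 fold change of -0.78 ± 0.13 (edgeR adjusted p = 0.72). Every virgin value of these 3 genes was above every multipara value. Dnajb1, the J-domain protein HSP40, was 62.0 and 59.1 against 46.5 and 45.0 CPM, a log2 fold change of -0.40 ± 0.08. Hsph1, the exchange factor HSP105, was 162 and 144 against 125 and 116 CPM, a log2 fold change of -0.33 ± 0.10. Hsp90aa1 was 551 and 549 against 449 and 467 CPM, a log2 fold change of -0.26 ± 0.09. The groups were farther apart than the spread within them for these genes, although only 2 libraries stood on each side. The other 4 were nearer to 0, with log2 fold changes of -0.22 ± 0.09 for Hspd1, -0.21 ± 0.13 for Hsp90ab1, -0.21 ± 0.17 for Hspa8 and -0.04 ± 0.08 for Hspe1.

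The multipara libraries were below both virgin libraries for 10 of 10 genes, where 18.8% of the 15812 genes tested showed such a separation downward and 17.3% upward. The margin was thin for Hspe1, with 100.4 CPM in multipara untreated 1 and 100.7 CPM in virgin untreated 2. Hspa1a and Hspa1b share reads, so the 10 genes are not independent. All 10 log2 fold changes were below 0, as were 46.8% of those of all genes. The median was -0.30 over the 10 genes and 0.02 over all genes. At an adjusted p of 0.05 edgeR called none of the 10, and 0% of all genes, while 6 of the 10 had an unadjusted p under 0.05. DESeq2 called Hspa1a, Hspa1b and Hsp90aa1 lower, 3 of 10, against 0.215% of all genes called lower. The call depended on the library left out, and each such fit leaves 1 library in a group. Without virgin untreated 1 or virgin untreated 2 edgeR called 0 of the 10. Without multipara untreated 1, the library with more immune and red blood cell messages, edgeR called Hspa1a (log2 fold change -0.69, adjusted p = 0.039) and Hspa1b (-0.67, adjusted p = 0.042). Without multipara untreated 2 it called Hspa1a (-0.93, adjusted p = 0.0014), Hspa1b (-0.99, adjusted p = 0.0010) and Hspb1 (-0.77, adjusted p = 0.022). Fitted with all 11 libraries, none was called. In bulk islets, fewer cells of a type and less RNA per cell cannot be told apart.

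Markers of other cell types also moved with multiparity in the untreated libraries, none being called. The summed level of 4 alpha cell markers was 44695 to 50455 CPM in virgin and 23812 to 34880 CPM in multipara libraries, with all 4 log2 fold changes below 0 (median -0.42). The 3 delta cell markers summed to 5353 to 6345 and 3451 to 4099 CPM, with all 3 below 0 (median -0.63). Of 15 immediate early genes tested, 12 were below 0 (median -0.37). Of 9 beta cell markers, 7 were above 0 (median 0.13). All 6 macrophage, 4 lymphocyte and 4 red blood cell markers were above 0, with medians of 0.89, 2.76 and 2.99. Multipara untreated 1 was far above the other untreated libraries in each list. Lymphocyte markers summed to 255 CPM there, 29.8 CPM in multipara untreated 2 and 35.8 to 41.1 CPM in virgin untreated libraries. The sums of macrophage markers were 784, 196 and 168 to 194 CPM, and those of red blood cell markers 2363, 485 and 157 to 205 CPM. The part of these cell types and of immediate early genes in the chaperone values was not tested.

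Partners of the chaperones were mostly lower in the multipara libraries as well, and none was called. Of 16 HSP70 partners, 13 had a log2 fold change below 0 without treatment (46.8% of all genes), such as Hspa4l (-0.43 ± 0.08) and Dnaja4 (-0.35 ± 0.10). So did 8 of 10 HSP90 co-chaperones, with Stip1 at -0.29 ± 0.11 and Ahsa1 at -0.23 ± 0.10, and 8 of 8 TRiC subunits, with Cct3 at -0.27 ± 0.12 and Tcp1 at -0.23 ± 0.08. With S-961, 14 of 16, 9 of 10 and 7 of 8 of these lists were below 0 (49.5% of all genes). Examples were St13 (-0.32 ± 0.12), Hspa2 (-0.30 ± 0.13), Chordc1 (-0.42 ± 0.14), Cdc37l1 (-0.25 ± 0.13), Cct8 (-0.28 ± 0.23) and Cct3 (-0.27 ± 0.24). Other lists were mixed. All 5 other small heat shock proteins were below 0 without treatment (Hspb8 -0.94 ± 0.16), but 3 of 4 tested were above 0 with S-961 (median 0.95). Heat shock factors were below 0 for 1 of 4 without treatment and 3 of 4 with S-961. Of 11 other mitochondrial chaperones and proteases, 6 were below 0 without treatment and 8 with S-961. Of 13 ER chaperones, 7 were below 0 without treatment and 12 with S-961, where Dnajb9 had -0.52 ± 0.25 and Hyou1 -0.23 ± 0.25. Multipara S-961 3 had the lowest summed level of all libraries for HSP70 partners, HSP90 co-chaperones, TRiC subunits and ER chaperones. For ER chaperones it was 5112 CPM, against 8996 to 11714 CPM in the other multipara S-961 libraries. The part of this library in the signs with S-961 was not tested. Atf3, a stress-induced transcription factor, had -1.01 ± 0.25 without treatment and 1.19 ± 0.32 with S-961.

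With S-961, multipara and virgin libraries did not differ in any of the 10 genes at the adjusted threshold. Hsph1 came nearest. It was 169, 185 and 209 CPM in the virgin S-961 libraries and 128, 130, 83.0 and 168 CPM in the multipara S-961 libraries. All 4 multipara values lay below the virgin values, multipara S-961 4 by less than 1 CPM. The libraries labelled multipara S-961 1 to 3 (83.0 to 130 CPM) thus lay apart from the virgin libraries and multipara S-961 4 (168 to 209 CPM), the same split as in the proliferation markers, and the direction rests on the labels. The log2 fold change was -0.55 ± 0.21 (unadjusted p = 0.028, edgeR adjusted p = 0.45), and it ran from -0.72 to -0.39 over the 13 alternatives. Hsph1 was the 1 gene of 10 with separate groups downward, against 3.64% of all 16784 genes. edgeR called none of the 10 and 0% of all genes (1348 higher and 282 lower at an unadjusted p under 0.05). DESeq2 called none of the 10 either, and 2.2% of all genes.

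Hspa8 was 1798, 1751 and 2109 CPM in the virgin and 1517, 1736, 676 and 1837 CPM in the multipara S-961 libraries. Multipara S-961 3 was far below the rest, and the log2 fold change of -0.38 ± 0.30 (edgeR adjusted p = 0.72) became -0.15 without it. The sum of Hspa1a and Hspa1b had a log2 fold change of 0.23 ± 0.62 (edgeR adjusted p = 0.93). It turned to -0.63 ± 0.42 (adjusted p = 0.53) without multipara S-961 4, the library that went with the virgin ones in its proliferation markers. The log2 fold changes of the other 6 genes ran from -0.24 ± 0.23 for Hspe1 to 0.23 ± 0.20 for Hspb1. The multiparity effects with and without S-961 were then compared directly. None of the 10 genes differed at the adjusted threshold in edgeR (0% of 17996 genes, 768 higher and 411 lower at an unadjusted p under 0.05) or in DESeq2 (0.439% of all genes).

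**Figure D2:**
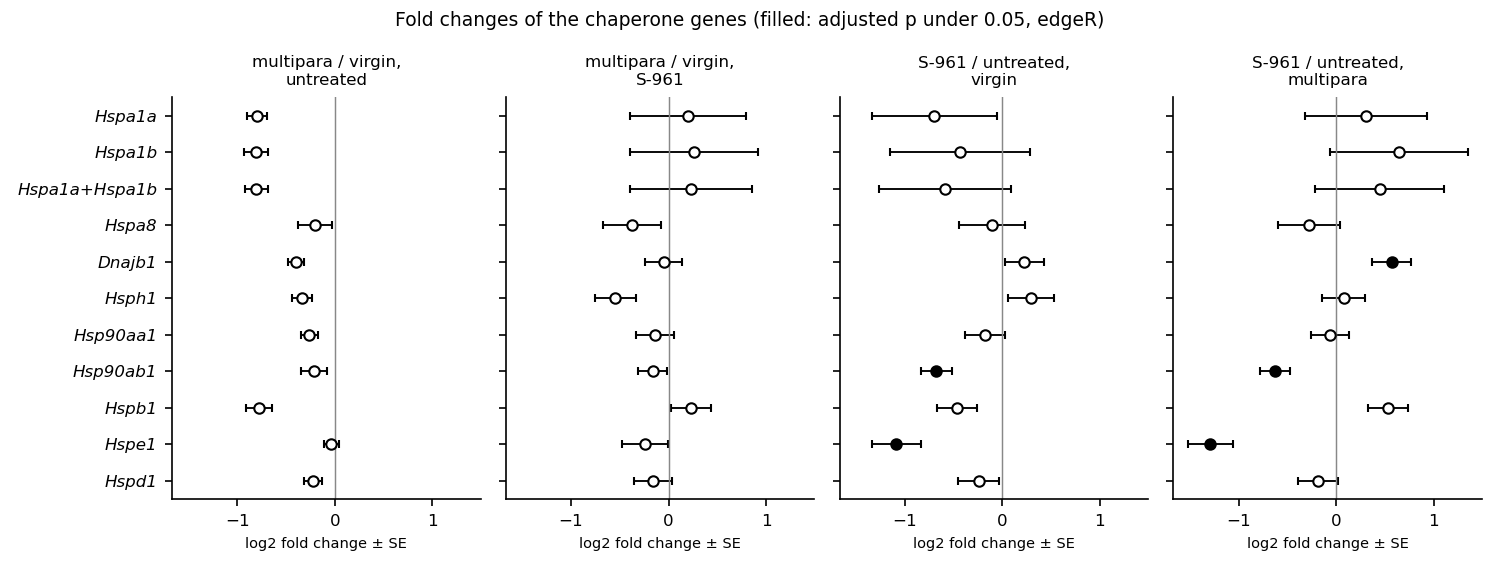
Log2 fold change (x axis) with its SE of each gene and of the sum of Hspa1a and Hspa1b (y axis) in 4 comparisons; filled points had an edgeR adjusted p under 0.05. All 10 genes lay left of 0 for multipara against virgin without treatment, and filled points appear only under S-961, for Hspe1, Hsp90ab1 and, in multipara islets, Dnajb1.

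S-961 went with lower Hspe1 and Hsp90ab1 in both parity groups and with higher Dnajb1 in multipara islets. In virgin islets 2 of the 10 genes fell and none rose, where 17.6% of all 17996 genes were called lower and 18.8% higher. In multipara islets 2 fell and 1 rose, where 19.4% were called lower and 18.2% higher. Counts of this size among 10 genes are near the background, so that the S-961 result concerns single genes and not the set. Groups were separate downward for 3 genes and upward for 1 in virgin islets (35.5% and 32.8% of all genes), and for 2 each in multipara islets (24.5% and 24.5%). The median log2 fold change was -0.34 over the 10 genes and -0.04 over all genes in virgin islets. In multipara islets both were close to 0 (0.01 and 0.03).

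Hspe1 encodes HSP10, the lid of the HSP60 chaperonin. It was 101 and 101 CPM in virgin and 100 and 95.5 CPM in multipara untreated islets. With S-961 it was 40.1, 41.3 and 61.3 CPM in virgin and 36.2, 54.0, 27.7 and 42.1 CPM in multipara libraries. No S-961 library reached an untreated one. Hspe1 fell by 1.09 ± 0.25 on the log2 scale in virgin islets (edgeR adjusted p = 0.0067) and by 1.29 ± 0.23 in multipara islets (adjusted p = 0.0019). It was called in all 11 alternatives for virgin and all 12 for multipara islets. Hspd1, which encodes HSP60 itself, was 219 and 199 CPM in virgin and 177 and 179 CPM in multipara untreated libraries. With S-961 it was 158, 161 and 210 CPM in virgin and 158, 197, 111 and 162 CPM in multipara libraries. These groups overlapped, with log2 fold changes of -0.24 ± 0.21 and -0.18 ± 0.20 (edgeR adjusted p = 0.40 and 0.49).

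The ratio of Hspe1 to Hspd1 within a library does not depend on the scaling between libraries. It was 0.46 and 0.51 in virgin untreated, 0.57 and 0.53 in multipara untreated, 0.25, 0.26 and 0.29 in virgin S-961, and 0.23, 0.27, 0.25 and 0.26 in multipara S-961 libraries. The ratio was 1.98-fold lower with S-961 (exact permutation test within parity groups, two-sided p = 0.0067, the smallest that 150 arrangements can give; adjusted p = 0.02 over 6 ratio tests). It did not differ between multipara and virgin S-961 libraries beyond their spread (exact permutation p = 0.43). Multipara S-961 4 lay with all other S-961 libraries here.

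Transcript length moved with this result. The Hspe1 transcript has 774 bases. Of the 817 genes with a coding transcript under 1000 bases, 51.5% were called lower with S-961 in virgin islets and 57.6% in multipara islets, against 15.9% and 17.2% of 14239 longer genes. The median log2 fold change of these short genes was -0.90 in virgin islets, with quartiles of -1.39 and -0.31. In multipara islets it was -0.999, with quartiles of -1.58 and -0.22. Hspe1 lay inside both ranges, with 41.0% and 36.2% of the short genes below it. The part of transcript length in the difference was not tested.

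**Figure D3:**
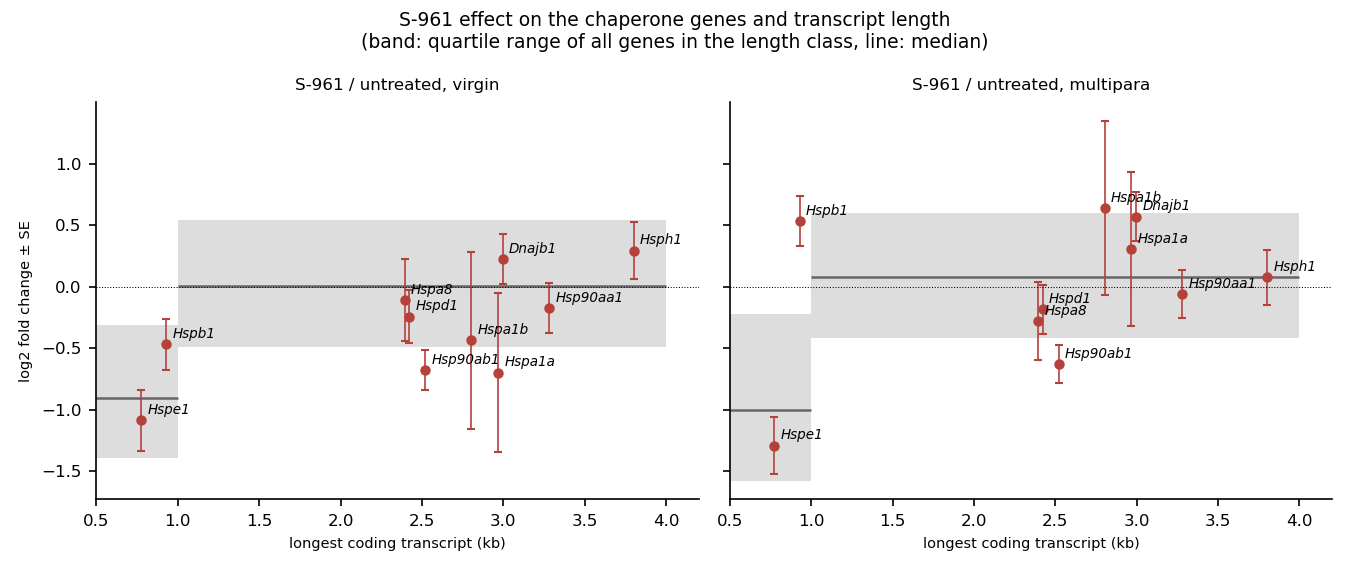
Log2 fold change with S-961 and its SE (y axis) of the 10 genes against the length of the longest coding transcript in kb (x axis) in virgin and multipara islets. The grey band is the range between the quartiles of all genes in the class under 1 kb or in the class of 1 kb and over (drawn to 4 kb), and the line is its median. Hspe1 lies within the band of short genes, and Hsp90ab1 lies below the band of longer ones.

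Hsp90ab1 was 1430 and 1463 CPM in virgin and 1320 and 1159 CPM in multipara untreated islets. With S-961 it was 847, 841 and 1029 CPM in virgin and 796, 841, 680 and 892 CPM in multipara libraries. The highest S-961 value was below the lowest untreated one. Hsp90ab1 fell by 0.68 ± 0.16 on the log2 scale in virgin islets (edgeR adjusted p = 0.0080) and by 0.63 ± 0.15 in multipara islets (adjusted p = 0.0086), which is 1.60-fold and 1.55-fold. Of the genes with longer transcripts, 18.5% and 17.8% had a lower log2 fold change. The call was kept in 9 of 11 and 10 of 12 alternatives. It was lost without either virgin untreated library (adjusted p = 0.054 and 0.068), without multipara untreated 1 (adjusted p = 0.091) and with no filter on low counts in multipara islets (adjusted p = 0.053). The size of the fall lay between 0.53 and 0.78 in all of them.

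Hsp90aa1, its inducible counterpart, was 448, 445 and 568 CPM in virgin and 467, 526, 313 and 449 CPM in multipara S-961 libraries, which overlapped with the untreated ones. Its log2 fold changes with S-961 were -0.18 ± 0.20 and -0.06 ± 0.19 (edgeR adjusted p = 0.53 and 0.83). The ratio of Hsp90ab1 to Hsp90aa1 was 2.60 and 2.67 in virgin untreated and 2.94 and 2.49 in multipara untreated libraries. With S-961 it was 1.89, 1.89 and 1.81 in virgin and 1.70, 1.60, 2.17 and 1.99 in multipara libraries. It was thus 1.44-fold lower with S-961 (exact permutation test within parity groups, two-sided p = 0.0067, adjusted p = 0.02 over 6 ratio tests). The transcripts, of 2520 and 3281 bases, both belong to the longer class, which was not divided further. The part of transcript length in this ratio was not tested.

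**Figure D4:**
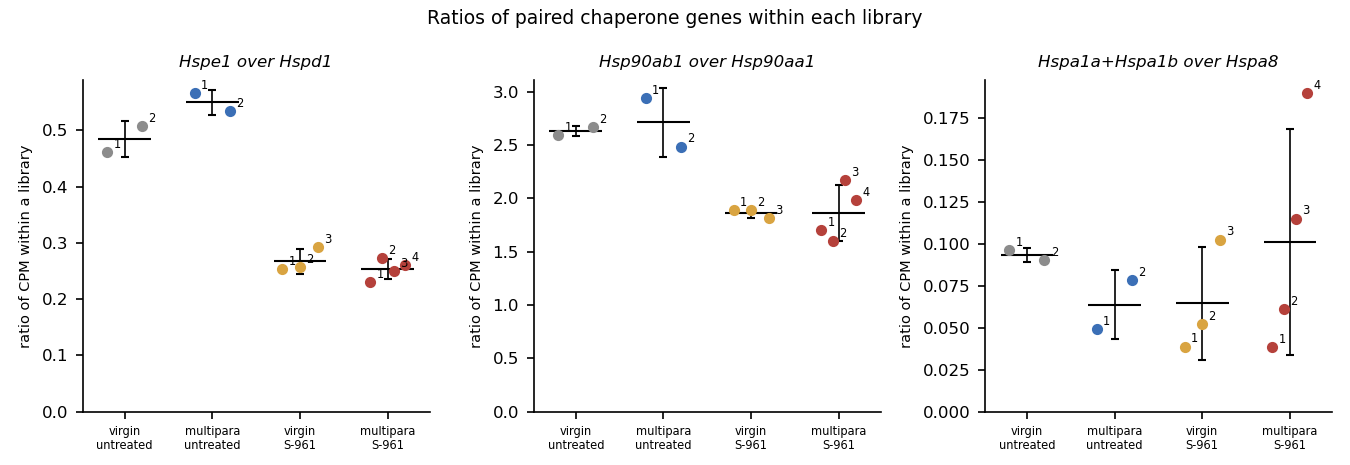
Ratio of CPM of a pair of chaperone genes within each library (y axis, from 0) in the 4 groups (x axis); numbered points are libraries, lines are means and bars 1 SD. The Hspe1 over Hspd1 and Hsp90ab1 over Hsp90aa1 ratios of the S-961 libraries lie below every untreated library, and the ratio of the inducible HSP70 genes to Hspa8 does not separate the groups.

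Dnajb1 was 46.5 and 45.0 CPM in multipara untreated and 63.0, 80.0, 52.5 and 76.5 CPM in multipara S-961 libraries. It rose by 0.57 ± 0.20 on the log2 scale (edgeR adjusted p = 0.042). This call was weak, since it was kept in 4 of 12 alternatives, and the adjusted p ran from 0.011 to 0.17 over them. In virgin islets Dnajb1 was 62.0 and 59.1 CPM untreated and 60.1, 63.7 and 88.7 CPM with S-961 (log2 fold change 0.23 ± 0.20, edgeR adjusted p = 0.42). The multiparity effects on Dnajb1 with and without S-961 were not told apart (log2 difference 0.34 ± 0.28, edgeR adjusted p = 0.87).

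Hspa8, Hsph1 and the sum of Hspa1a and Hspa1b passed no threshold with S-961. The sum had log2 fold changes of -0.59 ± 0.68 in virgin and 0.45 ± 0.66 in multipara islets (edgeR adjusted p = 0.53 and 0.62). The latter became -0.43 ± 0.42 without multipara S-961 4. Hspa8 had -0.11 ± 0.33 and -0.28 ± 0.31, and Hsph1 had 0.29 ± 0.24 and 0.08 ± 0.22. The ratio of inducible to constitutive HSP70, Hspa1a plus Hspa1b over Hspa8, was 0.04 to 0.19 with S-961 and 0.05 to 0.10 without (exact permutation p = 0.83).

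Hspb1 had opposite signs in the parity groups. It was 8.62, 9.38 and 13.5 CPM in virgin S-961 libraries, a log2 fold change of -0.47 ± 0.21 from the untreated ones (edgeR adjusted p = 0.099). In multipara S-961 libraries it was 12.7, 14.0, 12.3 and 9.96 CPM, a log2 fold change of 0.53 ± 0.20 (adjusted p = 0.062). The difference of the multiparity effects was 1.001 ± 0.29 on the log2 scale, with an unadjusted p = 0.0056 and an edgeR adjusted p = 0.56. Its transcript, of 930 bases, belongs to the short class, of which 69.5% and 87.3% lay below it. Among the other small heat shock proteins, Hspb8, a partner of Bag3, was 17.6 and 16.0 CPM in virgin and 9.38 and 8.01 CPM in multipara untreated libraries. With S-961 it was 5.93, 6.82 and 8.57 CPM in virgin and 16.2, 13.4, 9.50 and 6.53 CPM in multipara libraries. Hspb8 fell by 1.24 ± 0.32 with S-961 in virgin islets (edgeR adjusted p = 0.011), and Cryab, alpha B crystallin, fell by 1.23 ± 0.35 (adjusted p = 0.018). Neither was called in multipara islets (0.39 ± 0.31 and 0.45 ± 0.34). The differences of the multiparity effects were 1.63 ± 0.45 for Hspb8 and 1.67 ± 0.49 for Cryab (edgeR adjusted p = 0.54 and 0.57). Multipara S-961 4 lay within the virgin S-961 range for Hspb1 and Hspb8. Cryab ran from 0.94 to 1.71 CPM over the virgin S-961 libraries and multipara S-961 4, and stood at 3.01, 3.32 and 3.19 CPM in multipara S-961 1 to 3. The opposite signs in the parity groups therefore rest on the labels of the S-961 libraries, in the same split as the proliferation markers. Hspb6, a further small heat shock protein, had the same sign in both. It rose by 0.94 ± 0.26 in virgin and 0.84 ± 0.25 in multipara islets (edgeR adjusted p = 0.017 and 0.025), from 10.6 to 13.6 CPM in untreated to 13.3 to 26.6 CPM in S-961 libraries, where the lowest value was that of multipara S-961 3. Of these 5 other small heat shock proteins, 1 rose and 2 fell in virgin islets and 1 rose in multipara islets.

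Marker lists of other cell types moved with the difference of the multiparity effects, none of their genes being called. All 4 alpha cell, 3 delta cell, 6 duct, 6 stromal and 6 proliferation markers had positive log2 differences, with medians of 0.94, 0.89, 0.61, 1.37 and 1.74. All 6 macrophage, 4 lymphocyte and 4 red blood cell markers had negative ones, with medians of -0.99, -2.67 and -4.60. In each of the latter lists multipara untreated 1 had the highest summed level of all libraries. Other lists were mixed. Of 9 beta cell markers 8 were below 0 (median -0.19), of 6 endothelial markers 5 were below 0 (median -0.05), and of 13 acinar markers 7 were above 0 (median 0.04). The PP cell marker was above 0 (0.50). Over all genes the median was -0.04. The part of all these markers in the values of Hspb1, Hspb8 and Cryab was not tested.

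With S-961 the wider chaperone network held called genes in both directions. The counts are to be read against 18.8% of all genes called higher and 17.6% called lower in virgin islets, and 18.2% and 19.4% in multipara islets. Of 16 HSP70 partners, 4 rose and 4 fell in virgin islets and 5 rose and 4 fell in multipara islets. Dnajb4, a J-domain protein, rose by 1.23 ± 0.13 and 1.12 ± 0.13, from 20.0 to 23.7 CPM in untreated to 41.6 to 55.2 CPM in S-961 libraries. Bag1, a nucleotide exchange factor, fell by 0.77 ± 0.18 and 1.05 ± 0.17, and Dnajc7 fell by 0.77 ± 0.13 and 0.80 ± 0.13. Hspa2 rose by 0.89 ± 0.17 in virgin and 0.63 ± 0.16 in multipara islets, and Dnajb2 fell by 0.71 ± 0.15 and 0.83 ± 0.14. Of 10 HSP90 co-chaperones, 3 fell in each parity group, and 1 rose in virgin islets. Ahsa1, which activates the HSP90 ATPase, fell by 1.12 ± 0.19 and 1.09 ± 0.18. Cdc37, which brings kinases to HSP90, fell by 0.58 ± 0.19 and 0.76 ± 0.18, and Aarsd1 fell by 0.89 ± 0.22 and 0.62 ± 0.21. Ppid, a cyclophilin, rose by 0.55 ± 0.19 in virgin islets. Of 8 subunits of the cytosolic chaperonin TRiC, Cct4, Cct5 and Cct7 fell in both parity groups, and none rose. Cct5 fell by 0.96 ± 0.19 and 0.83 ± 0.18, Cct4 by 0.87 ± 0.15 and 0.75 ± 0.14, and Cct7 by 0.77 ± 0.21 and 0.73 ± 0.20. All these passed the edgeR adjusted threshold of 0.05. The list medians were -0.28 to -0.06 for these 3 lists, beside -0.04 and 0.03 over all genes.

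Heat shock factors were mixed. Hsf2 rose by 0.47 ± 0.16 and 0.64 ± 0.15, Hsbp1, a negative regulator, fell by 0.51 ± 0.16 and 0.86 ± 0.15, and Hsf1 had log2 fold changes of 0.09 ± 0.10 and 0.11 ± 0.10 (edgeR adjusted p = 0.53 and 0.38). Of 11 other mitochondrial chaperones and proteases, 2 rose and 2 fell in virgin and 2 rose and 4 fell in multipara islets, where 18.8% and 18.2% of all genes rose and 17.6% and 19.4% fell. The protease Yme1l1 rose by 0.90 ± 0.17 and 0.73 ± 0.16 and Afg3l2 by 0.53 ± 0.11 and 0.57 ± 0.11. Lonp1 fell by 0.38 ± 0.10 and 0.37 ± 0.10, Clpp fell by 0.63 ± 0.22 in multipara islets, and Hscb, an iron-sulfur cluster chaperone, fell by 1.23 ± 0.23 and 1.24 ± 0.21. Calls among ER chaperones and immediate early genes were all upward. Of 13 ER chaperones, 5 rose in virgin and 4 in multipara islets and none fell, beside 18.8% and 18.2% of all genes that rose, with medians of 0.83 and 0.68. Dnajb9 rose by 2.08 ± 0.36 and 1.88 ± 0.34, and Hyou1, the ER relative of Hsph1, rose by 1.25 ± 0.29 and 1.07 ± 0.28. Pdia4 rose by 1.09 ± 0.32 and 0.94 ± 0.30, Dnajc3 by 1.09 ± 0.26 and 0.96 ± 0.25, and Sdf2l1 by 1.52 ± 0.47 in virgin islets. Acinar cells also carry ER chaperones in abundance, and the part of the acinar messages was not tested. Of 17 immediate early genes tested, 8 rose in virgin and 13 in multipara islets and none fell, with medians of 0.78 and 1.58. Nr4a1 rose by 4.80 ± 0.31 and 4.38 ± 0.30, Fosb by 2.42 ± 0.43 and 3.20 ± 0.43, Myc by 2.84 ± 0.34 and 2.04 ± 0.32, and Jund by 1.63 ± 0.25 and 2.31 ± 0.25. Egr3 rose by 3.20 ± 1.05 in virgin islets and Atf3 by 2.23 ± 0.38 in multipara islets. No gene of these lists was called for multiparity, with or without S-961, or for the difference of the multiparity effects, where 0% of all genes were called.

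**Figure D5:**
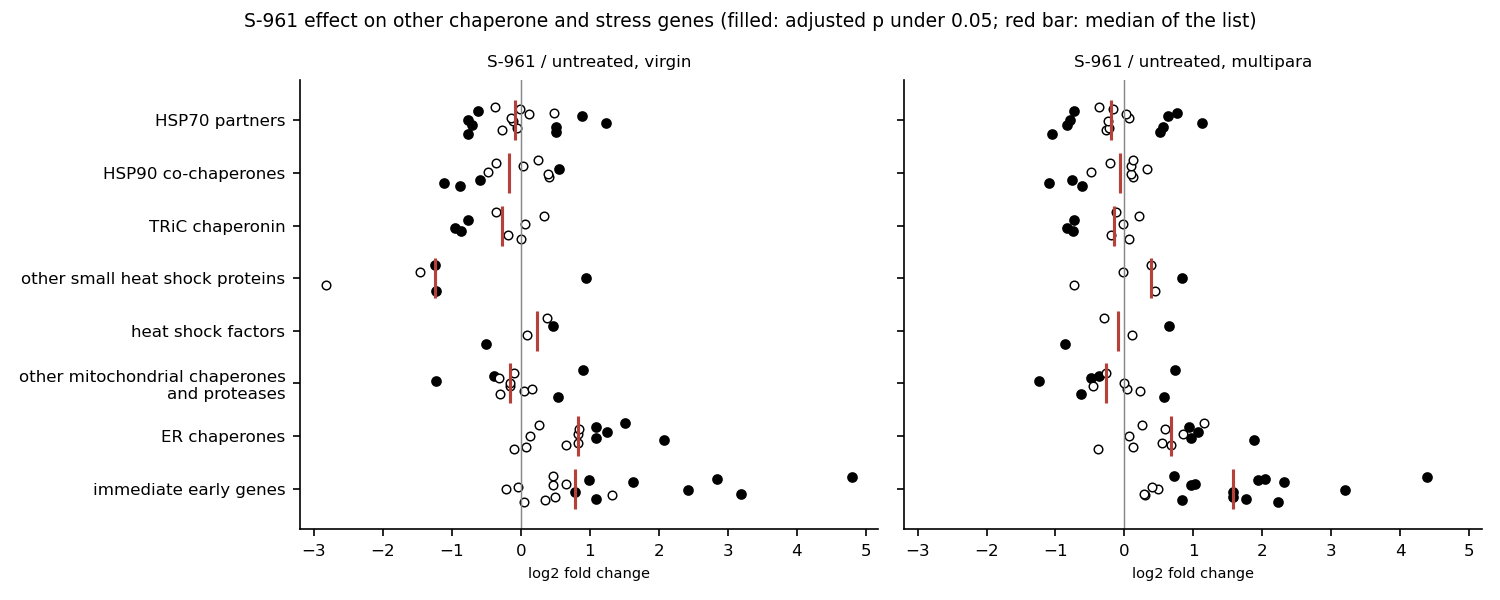
Log2 fold change with S-961 (x axis) of each gene in 8 lists of chaperone and stress genes (y axis) in virgin and multipara islets; filled points had an edgeR adjusted p under 0.05, and the red bar is the list median. ER chaperones and immediate early genes lie mostly right of 0, and cytosolic partners of HSP70 and HSP90 have filled points on both sides.

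The gene whose log2 CPM was most like that of the sum of Hspa1a and Hspa1b over the 11 libraries was Dhx34 (Pearson r = 0.90, among 11541 genes with a mean of at least 4 CPM). Tbc1d10b (0.86), Zfp830 (0.81), Zdhhc4 (0.78) and Rita1 (0.78) followed. Dhx34 ran from 23.5 to 28.7 CPM, and its highest value was in multipara S-961 4, where the sum was also highest. None of the other 8 chaperone genes was among these. Hspd1 came nearest with r = 0.50, and Hspb1 was the last with r = 0.25. The libraries share a scaling and fall into the 4 groups, so these values describe the 11 libraries and carry no test.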

How the data were processed

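Islet RNA was extracted with TRIzol, poly(A)-selected and made into strand-specific libraries. The authors deposited, for each of 11 libraries, expected counts per gene, which divide shared reads between genes and are not normalized; per the submitters' processing notes, STAR and RSEM were used with GRCm38/mm10 (versions not given in the sources used here). Expected counts were rounded. All 55536 identifiers matched GENCODE M21 (GRCm38), the source of coordinates and lengths.

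Tests used edgeR 4.0.16 in R 4.3.3 (TMM, filterByExpr with a minimum count of 10, quasi-likelihood F-test, Benjamini-Hochberg over all genes tested, threshold 0.05). Multiparity was tested on the 7 S-961 or the 4 untreated libraries, and the other contrasts on all 11. The script was tested on simulated data. Alternatives were DESeq2 1.42.0, RLE size factors, insulin genes left out, no filter, other libraries in the fit, a replicate block and leaving out each library. Ratios were compared by exact permutation. Sequences came from RefSeq (GRCm38.p6).

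The 10 genes and the lists were chosen with earlier results of these data known. Named from each list were the genes past the threshold (at most 4 by size), otherwise the 2 largest with a mean of at least 4 CPM. For multiparity, genes of lists with no call are given as examples and the rest, marker genes included, as counts and medians. Hsf1 under S-961, and values of a named gene in a comparison for which the rule did not name it, were added after the values were seen. The single-cell libraries of the study were not analysed here. The paper gives as many virgin and multiparous mice as there are S-961 libraries, while the labels state no animals. The p-values therefore rest on the spread between libraries, taken as the unit. Depths of 22028507 to 32234146 counts left every member with at least 134 counts, so that the spread between libraries limits the precision.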

Additional observations from a re-analysis of the deposited data

Results flagged for a closer look

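Hspa1a in multipara S-961 4 was 190 CPM, far from the 34.2 to 58.6 CPM of the other 3 libraries of its group. The sum of Hspa1a and Hspa1b was 349 CPM in the same library, against 58.3 to 106 CPM. The gap to the nearest library, divided by the range of the group, was 0.84 in both cases, above the limit of 0.829 for 4 values. Chance alone flags about 1 in 20 groups. These are not independent, since both genes share reads. The library also differed from its group in its proliferation markers, as given above.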

How the results depend on the processing

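Hspe1 kept its direction and its call with S-961 under every alternative in both parity groups, while Hsp90ab1 kept its direction under all and its call under 9 of 11 and 10 of 12. Of 682 values under an alternative, for single genes and for counts of calls, 623 kept their direction and side of the threshold. The number of the 10 genes called ran from 1 to 3 with S-961 in virgin islets, 1 to 3 in multipara islets and 0 to 3 for multiparity without treatment when 1 library was left out, and DESeq2 called 3 in the last. Where 1 untreated library was left out, the other was assumed to vary like the remaining groups. For multiparity without treatment 0 of all genes were called, but 1738 without multipara untreated 2 and 53 without multipara untreated 1; with S-961 it was 525 without multipara S-961 4.

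Leaving out 1 library turned the sign of uncalled log2 values. For S-961 in multipara islets they ran from -0.43 to 0.71 for the sum of Hspa1a and Hspa1b, -0.53 to 0.56 for Hspa1a, -0.28 to 0.92 for Hspa1b, -0.0854 to 0.24 for Hsph1 and -0.12 to 0.0714 for Hsp90aa1. For multiparity with S-961 they ran from -0.63 to 0.88 for the sum, -0.62 to 0.79 for Hspa1a, -0.64 to 1.01 for Hspa1b and -0.16 to 0.15 for Dnajb1. For multiparity without treatment Hspe1 ran from -0.10 to 0.0068. For the difference of the multiparity effects Hsp90ab1 ran from -0.0374 to 0.15, Hspa8 from -0.33 to 0.0632, Hspd1 from -0.0631 to 0.20 and Hspe1 from -0.38 to 0.0201. In each case the cause was not tested.

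Replicate numbers did not pair the libraries, since same-numbered virgin and multipara S-961 libraries had correlations of 0.06, 0.01 and 0.09 of their deviations; it was 0.28 for the untreated libraries, of which there are only 2 a group. With the replicate block, which in effect drops multipara S-961 4 as the only number 4, the sum of Hspa1a and Hspa1b turned to -0.66 for S-961 in multipara islets and -0.48 for multiparity with S-961, Hspa1a to -0.75 and -0.49, and Hspa1b to -0.53 and -0.47. Hsph1 turned to -0.0396 for S-961 in multipara islets, Hspa8 to 0.0750 for S-961 in virgin islets and Hsp90ab1 to -0.0045 for the difference of the effects. The block called 3 genes in virgin islets (with Hspa1a, -1.07) and 2 in multipara islets (without Dnajb1).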
